A study of Mus musculus with 6 samples.

Results

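The genes described here are 48 transcripts of skeletal muscle, measured by RNA sequencing in tumours of a liver cancer line grown under the skin of mice. They were chosen by gene symbol, as genes known for their part in muscle fibres, and all 48 were found once each among the 34745 gene IDs of the table. The tumours came from Hep1-6, a mouse hepatoma line, injected subcutaneously into C57BL/6J mice. In the ND group the mice ate a normal diet (3 libraries, ND 1 to ND 3), and in the HCD group a high cholesterol diet (3 libraries, HCD 1 to HCD 3). The labels give no age, diet composition or tumour dissection, and do not state that each tumour came from a different animal, and a p-value here covers only the variation among these libraries. Values are FPKM, fragments per kilobase of gene scaled to the fragments of the library, so that levels of different genes can be compared per length.

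Skeletal muscle fibres are built from sarcomeres, in which myosin heavy chains pull on thin filaments of actin under the control of troponin. Calcium released from the sarcoplasmic reticulum starts contraction, and a calcium pump ends it. Fast and slow fibres use different genes for many of these proteins: Myh4, Myh1 and Myh2 encode the fast heavy chains of type IIb, IIx and IIa fibres, and Myh7 the slow chain of type I fibres. Slow fibre genes such as Myh7, Myl2, Myl3 and Tnnc1 are also those of the heart. Mice have a thin sheet of skeletal muscle beneath the skin, the panniculus carnosus, besides the muscles of the body wall.

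Muscle promoters are known for E-boxes, bound by MYOD1 and myogenin, and for sites of the MEF2 factors. RefSeq promoters on GRCm38.p6 were found for 35 of the 48 members, taking the first listed start of each gene. Of the 250 bases before the start, an E-box (CANNTG, which reads the same on both strands) was present in 30 of 35 members (85.7%) and in 66.0% of all 27025 promoters. A MEF2 site, searched on both strands, was present in 8 of 35 (22.9%) and in 3.01% of all promoters. Shown are the 250 bases before the start of the member with the highest level (Acta1), of the fast heavy chain gene with the highest level (Myh4) and of a slow fibre gene (Casq2), with E-boxes and MEF2 sites in capitals. Acta1 lies at chr8:123894776-123895025 on the minus strand, Myh4 at chr11:67237562-67237811 and Casq2 at chr3:102086165-102086414 on the plus strand.
Acta1: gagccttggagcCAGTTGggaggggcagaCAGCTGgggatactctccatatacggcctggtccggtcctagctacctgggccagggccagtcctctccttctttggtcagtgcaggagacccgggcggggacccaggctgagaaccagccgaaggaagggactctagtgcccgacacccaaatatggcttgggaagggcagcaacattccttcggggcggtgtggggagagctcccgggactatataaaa
Myh4: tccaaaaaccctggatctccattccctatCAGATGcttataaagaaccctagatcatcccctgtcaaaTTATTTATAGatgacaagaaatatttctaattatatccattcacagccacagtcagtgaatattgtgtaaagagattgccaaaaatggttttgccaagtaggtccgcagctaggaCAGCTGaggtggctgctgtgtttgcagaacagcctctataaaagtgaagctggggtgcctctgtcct
Casq2: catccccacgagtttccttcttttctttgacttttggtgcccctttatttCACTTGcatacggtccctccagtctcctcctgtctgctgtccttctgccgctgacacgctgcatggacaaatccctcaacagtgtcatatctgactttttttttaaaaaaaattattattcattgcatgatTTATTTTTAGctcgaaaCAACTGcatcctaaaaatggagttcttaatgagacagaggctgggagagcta
Each of the 3 windows holds 2 E-boxes, which do not overlap the MEF2 sites; Myh4 and Casq2 hold 1 MEF2 site each and Acta1 none. A match is a run of letters only, since no binding was measured.

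Many muscle transcripts were abundant in some tumours and near 0 in others, within both diets. The summed level of the 48 members was 137, 1188 and 154 FPKM across ND 1 to ND 3, and 1428, 266 and 159 FPKM across HCD 1 to HCD 3. That is 0.0516%, 0.444% and 0.0576% of all FPKM for ND, and 0.525%, 0.0993% and 0.0581% for HCD, in the same order. In ND 1, ND 3 and HCD 3 most of the sum was Atp2a2, at 83.0, 88.1 and 93.2 FPKM. Eno3 and Pfkm, also expressed in all tumours, were at 27.4 and 13.4 FPKM in ND 1. Without Atp2a2 the sums were 53.6, 1098 and 65.8 FPKM under ND and 1352, 184 and 65.7 FPKM under HCD. ND 2 and HCD 1 were thus the high libraries, HCD 2 lay between, and the other 3 were low. Of the 48 members, 37 were highest in HCD 1, 10 in ND 2 and 1 in HCD 3; among all 13417 tested genes these libraries were the highest for 20.9%, 12.1% and 13.3%, and ND 1, ND 3 and HCD 2 for 17.4%, 12.3% and 24.0%. In 37 members ND 2, HCD 1 and HCD 2 all lay above the other 3 libraries, against 10.8% of tested genes, a pattern set after the values were known. More muscle cells and more RNA per muscle cell cannot be told apart in such bulk samples.

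**Figure D1:**
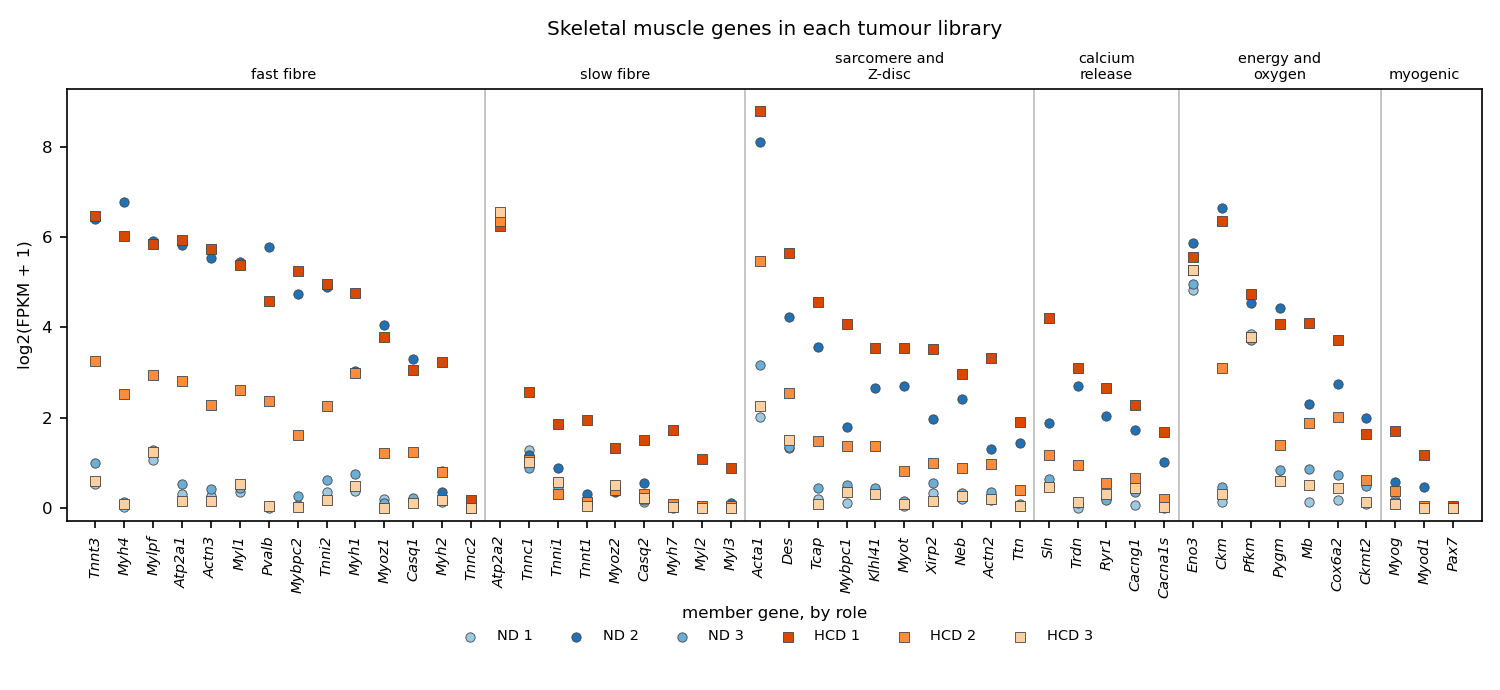
Level of each of the 48 members as log2(FPKM + 1), 1 point per library, with members ordered by role and then by mean FPKM (circles, normal diet; squares, high cholesterol diet). ND 2, HCD 1 and HCD 2 lie above the other 3 libraries in 37 of the 48 members. This holds for 2 of the 9 slow fibre genes, and Atp2a2 is level in all 6 libraries.

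Fast fibre genes were high in ND 2 and HCD 1 and near 0 in ND 1, ND 3 and HCD 3. Their 14 members summed to 539 FPKM in ND 2 against 508 FPKM in HCD 1, to 55.3 FPKM in HCD 2, and to 3.19, 6.04 and 3.35 FPKM in ND 1, ND 3 and HCD 3. Tnnt3, the fast troponin T that anchors troponin to the thin filament, was at 0.446, 84.2 and 0.989 FPKM across ND 1 to ND 3 and at 87.3, 8.61 and 0.505 FPKM across HCD 1 to HCD 3. ND 2 and HCD 1 were level for this gene. Actn3, a Z-disc actinin of fast fibres, was at 45.8 FPKM in ND 2 against 52.6 FPKM in HCD 1. Atp2a1, the fast calcium pump, was at 56.2 and 60.6 FPKM in the same libraries. Mylpf and Myl1, the fast light chains, were at 59.7 and 43.0 FPKM in ND 2 and at 57.0 and 41.0 FPKM in HCD 1. Tnni2, the fast troponin I, was at 28.7 FPKM in ND 2 against 30.1 FPKM in HCD 1. These genes had similar levels in both high libraries. The ratio of HCD 1 to ND 2, taken where either library reached 1 FPKM, had a median of 1.04 over 13 fast genes. Of these ratios 7 were above 1, among them that of Myh2, which reached 1 FPKM in HCD 1 only.

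Parvalbumin and myosin binding protein C were less equal between ND 2 and HCD 1. Pvalb, parvalbumin, a calcium buffer of the fastest fibres, was listed at 0, 54.4 and 0.0287 FPKM across ND 1 to ND 3 and at 23.2, 4.12 and 0.0284 FPKM across HCD 1 to HCD 3. Its level in HCD 1 was 0.426 of that in ND 2. Mybpc2, the fast myosin binding protein C, was at 25.7 FPKM in ND 2 against 37.0 FPKM in HCD 1. Casq1 and Myoz1, a calcium store protein of the reticulum and a Z-disc protein, were at 8.86 and 15.5 FPKM in ND 2 and at 7.29 and 12.8 FPKM in HCD 1. The fast troponin C gene Tnnc2 stood apart, listed at no more than 0.123 FPKM in any library, although its partners in the troponin complex were at 28.7 FPKM or more in ND 2 and HCD 1. Its exons (chromosome 2, 164777161 to 164779967, GRCm38) share 74.0% of their bases with Ube2c on the opposite strand, at 33.2 to 43.5 FPKM in the 6 libraries. No source used here states whether reads were counted by strand, and the part of this overlap in the low value was not tested.

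The heavy chain genes differed in make-up between the tumours. Myh4 (chromosome 11, 67238029 to 67260446) was at 0.00677, 109 and 0.0825 FPKM across ND 1 to ND 3 and at 64.5, 4.79 and 0.0592 FPKM across HCD 1 to HCD 3. Myh1 was at 0.298, 7.20 and 0.667 FPKM under ND and at 26.3, 6.90 and 0.399 FPKM under HCD. Myh2 was at 0.0865, 0.277 and 0.748 FPKM under ND and at 8.40, 0.742 and 0.132 FPKM under HCD. ND 2 was therefore highest for Myh4 only, while HCD 1 was highest for the other 3. As a share of the 4 heavy chains, Myh4 took 93.6% in ND 2 (95% exact binomial interval 93.3% to 93.9%), 63.5% in HCD 1 (62.8% to 64.3%) and 38.3% in HCD 2 (36.0% to 40.7%). Myh1 took 6.17%, 25.9% and 55.3% in the same 3 libraries, so that it was the leading heavy chain in HCD 2. Myh2 took 0.237%, 8.28% and 5.94%. In ND 1, ND 3 and HCD 3 the 4 genes summed to 0.391, 1.51 and 0.600 FPKM, and Myh4 took 1.73% (0.0439% to 9.23%), 5.45% (2.76% to 9.52%) and 9.86% (4.37% to 18.4%). Of these low libraries, Myh1 led in ND 1 (76.15%) and HCD 3 (66.42%), and Myh2 in ND 3 (49.46%, against 44.09% for Myh1). The intervals cover counting error only, and each library is 1 tumour sample. The fast heavy chain genes are near-identical neighbours on 1 chromosome, so reads that fit several of them make these shares uncertain.

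**Figure D2:**
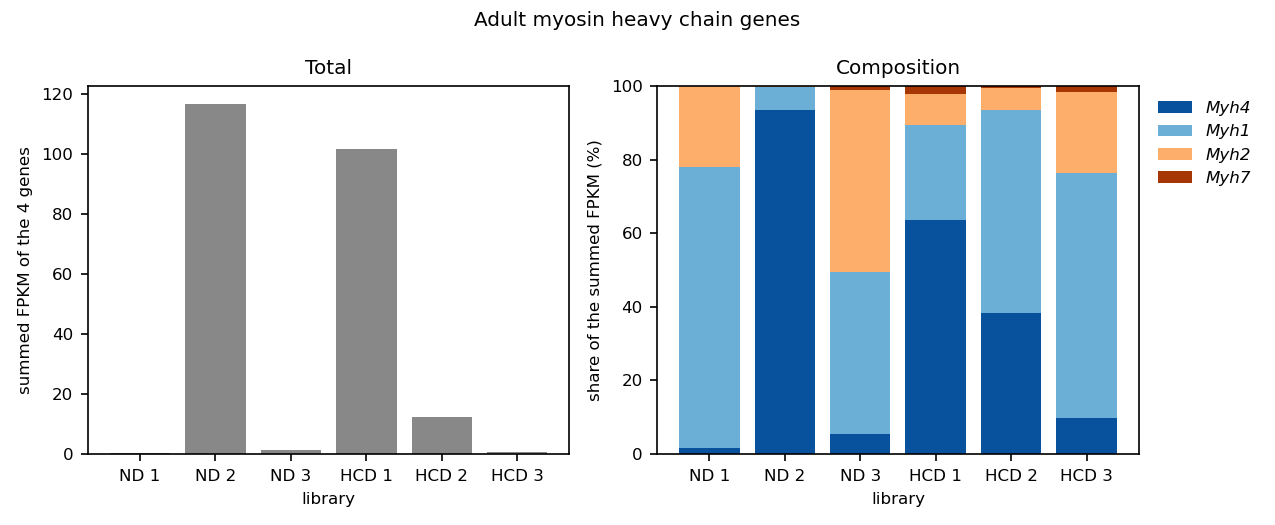
Summed FPKM of Myh4, Myh1, Myh2 and Myh7 in each library (left) and the share of each gene in that sum in percent (right). ND 2 and HCD 1 have similar sums, 117 and 102 FPKM, with 93.6% and 63.5% from Myh4; the shares of ND 1, ND 3 and HCD 3 rest on sums of at most 1.51 FPKM.

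Slow fibre genes were highest in HCD 1. Leaving aside Atp2a2, all 8 slow members had their highest value there, and their sum was 18.1 FPKM in HCD 1 against 1.67 to 3.13 FPKM in the other 5 libraries. In ND 2, whose fast genes were as high as those of HCD 1, the 8 slow genes summed to 3.13 FPKM. Myh7 (chromosome 14, 54970684 to 54994626) was listed at 0, 0.00396 and 0.0151 FPKM across ND 1 to ND 3 and at 2.32, 0.0610 and 0.00993 FPKM across HCD 1 to HCD 3. This corresponds to 0, 1 and 3 reads in ND and to 454, 12 and 2 reads in HCD, and a count of 0 in ND 1 allows up to 0.0136 FPKM. Myl2, the slow regulatory light chain, was listed at 0 in all 3 ND libraries and in HCD 3, and at 1.11 FPKM in HCD 1. Myl3, the slow essential light chain, was at 0.837 FPKM in HCD 1 and at most 0.0706 FPKM elsewhere. The diet groups overlapped for each of these genes, since HCD 3 was as low as the ND libraries.

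The slow troponins were detected in all tumours and were highest in HCD 1. Tnnc1, the troponin C of slow and heart muscle, was at 1.43, 1.25 and 0.844 FPKM across ND 1 to ND 3 and at 4.97, 1.08 and 1.02 FPKM across HCD 1 to HCD 3. Tnni1, the slow troponin I, was at 0.436, 0.840 and 0.326 FPKM under ND and at 2.63, 0.227 and 0.477 FPKM under HCD. Tnnt1, the slow troponin T, was at 2.86 FPKM in HCD 1 and at most 0.237 FPKM elsewhere. For these genes ND 2 was not separated from the low libraries in the way it was for fast genes. Casq2, the calcium store protein of slow and heart muscle, was at 1.85 FPKM in HCD 1 and 0.462 FPKM in ND 2, and Myoz2, a Z-disc protein, at 1.49 and 0.263 FPKM. The ratio of HCD 1 to ND 2, where either library reached 1 FPKM, had a median of 3.998 over 7 slow genes. It was 4.83 over the 6 other than Atp2a2. Myl3 was under 1 FPKM in both, and Myl2 was left out for its 0 in ND 2. Myh7, Tnnt1, Tnni1, Casq2 and Myoz2 reached 1 FPKM in HCD 1 only. Their ratios were thus above 1 by that choice, and these medians do not test for a difference.

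Atp2a2, the calcium pump of slow and heart muscle that other cells also use, did not follow the other members. It was at 83.0, 90.2 and 88.1 FPKM across ND 1 to ND 3 and at 75.5, 81.6 and 93.2 FPKM across HCD 1 to HCD 3. The highest value was 1.24 times the lowest, and HCD 1 was the lowest library. Its level thus hardly differed between tumours rich and poor in muscle transcripts.

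**Figure D3:**
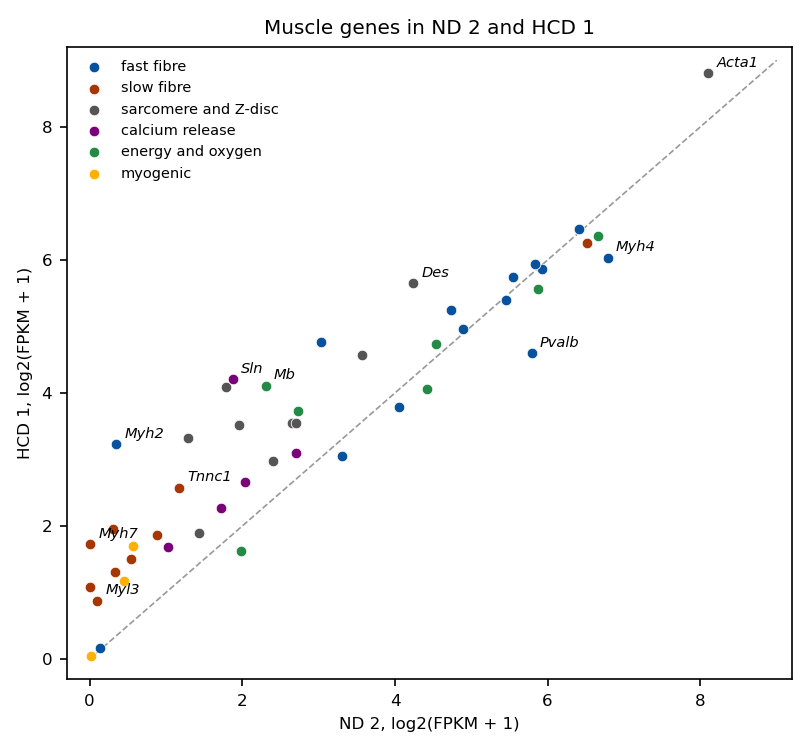
Level of each member in ND 2 (x axis) and HCD 1 (y axis) as log2(FPKM + 1), coloured by role; the dashed line marks equal levels. Most fast fibre genes lie near the line, while sarcomere and calcium release genes and the slow fibre genes other than Atp2a2 lie above it, with Myh2 at 0.277 and 8.40 FPKM.

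Fast and slow isoforms were compared as pairs within a library, with the slow gene given as a percentage of both. Leaving aside the pumps, where Atp2a2 is general, and troponin C, where Tnnc2 is near 0, 8 pairs could be read. The slow share ranged from 0 to 8.74% in ND 2, from 1.91% to 30.2% in HCD 1 and from 0.355% to 43.7% in HCD 2, with medians of 0.972%, 5.75% and 3.47%. The highest share in each of the 3 was that of Mybpc1, the slow-type myosin binding protein C, which fast fibres also use. For the troponin I pair the slow share was 2.85% in ND 2, 8.04% in HCD 1 and 5.69% in HCD 2. The slow share was lower in ND 2 than in HCD 1 and HCD 2 in all 8 pairs. Some slow genes in HCD 2 were no higher than in ND 1 or HCD 3. Tnni1 was at 0.227 FPKM there, against 0.436 in ND 1 and 0.477 in HCD 3, and Myoz2 at 0.303, against 0.331 and 0.417. Tnnt1 was below ND 1, and Myl3 had 1 read. Myh7, Casq2 and Mybpc1 were above ND 1, ND 3 and HCD 3. The fast genes of the 8 pairs were lower in HCD 2 than in ND 2, so such levels weigh more in its shares. Whether its shares reflect slow fibres was not tested. The mean log2(FPKM + 1) of the fast list exceeded that of the slow list by 3.35 in ND 2, 2.53 in HCD 1 and 1.10 in HCD 2, and lay below it by -0.72, -0.47 and -0.72 in ND 1, ND 3 and HCD 3. Without Atp2a2 the differences were 4.03, 3.05 and 1.77, and -0.04, 0.22 and -0.03. With a pseudocount of 0.1 in place of 1 they were 4.78, 2.81 and 2.47, and -0.89, -0.15 and -0.96, so that HCD 1 and HCD 2 lay closer together.

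**Figure D4:**
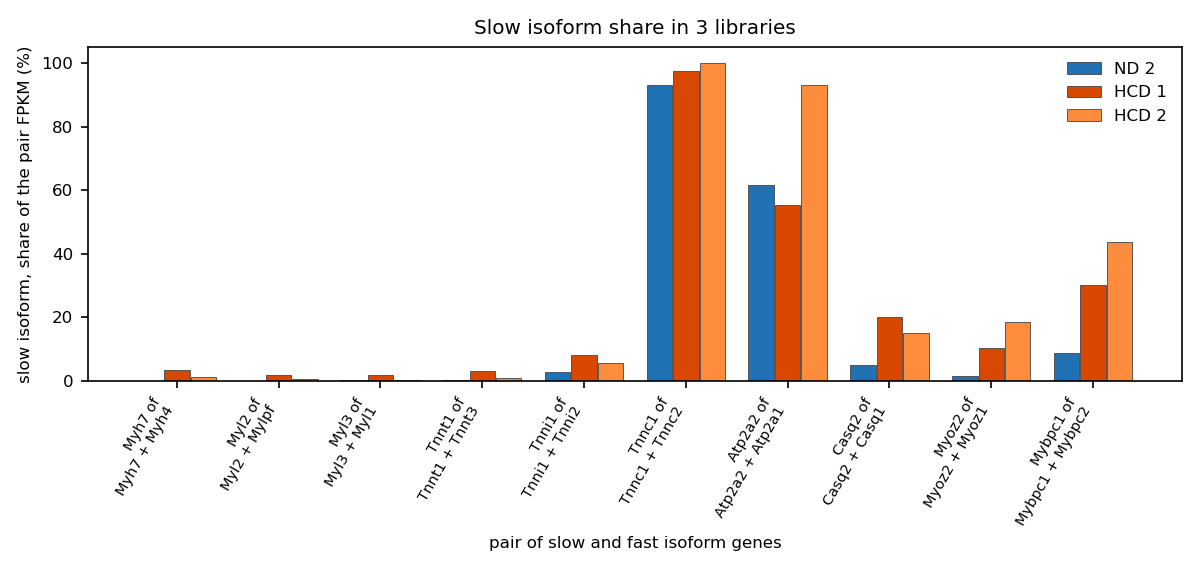
Slow isoform as a percentage of the summed FPKM of a slow and fast pair, for 10 pairs in ND 2, HCD 1 and HCD 2; pairs in the other libraries mostly sum to under 1 FPKM. ND 2 has the lowest bar in every pair except the pumps, with 8.74% for Mybpc1 against 30.2% in HCD 1 and 43.7% in HCD 2; troponin C and the pumps are high in all 3.

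Sarcomere and Z-disc genes shared by fibre types were higher in HCD 1 than in ND 2 in 10 of 10 members, with a median ratio of 2.05. Acta1, skeletal muscle actin (chromosome 8, 123891769 to 123894751), had the highest FPKM of the 48 members in HCD 1 and ND 2. Des, desmin, the intermediate filament of muscle, was at 1.52, 17.8 and 1.52 FPKM across ND 1 to ND 3 and at 49.1, 4.81 and 1.84 FPKM across HCD 1 to HCD 3. Mybpc1 was at 0.0782, 2.46 and 0.407 FPKM under ND and at 16.0, 1.60 and 0.265 FPKM under HCD. It is counted here and also as the slow gene of a pair, and its ratio of 6.49 was the largest of the 10. Actn2, the Z-disc actinin of all fibres, was at 1.45 FPKM in ND 2 against 9.03 FPKM in HCD 1, a ratio of 6.23. The giant proteins titin and nebulin, which span the sarcomere and the thin filament, differed less: Ttn was at 1.71 and 2.72 FPKM in ND 2 and HCD 1, and Neb at 4.29 and 6.84 FPKM. Tcap, which caps titin, was at 10.9 and 22.8 FPKM, and Xirp2, an actin-binding protein, at 2.90 and 10.5 FPKM. The ratios of Ttn and Neb were 1.59 each, against 2.75 for Des. Klhl41 and Myot, a thin filament regulator and a Z-disc protein, were at 5.29 and 5.51 FPKM in ND 2 and at 10.6 and 10.7 FPKM in HCD 1.

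The genes of calcium release were all highest in HCD 1, with ratios to ND 2 above 1 in 5 of 5. Ryr1, the calcium release channel, was at 0.138, 3.09 and 0.116 FPKM across ND 1 to ND 3 and at 5.32, 0.463 and 0.226 FPKM across HCD 1 to HCD 3. Cacna1s and Cacng1, subunits of the voltage sensor, were at 1.03 and 2.29 FPKM in ND 2 and at 2.21 and 3.82 FPKM in HCD 1. Trdn, triadin, which links channel and store, was at 5.52 and 7.54 FPKM. Sln, sarcolipin, a small inhibitor of the calcium pump, was at 0.425, 2.67 and 0.565 FPKM under ND and at 17.6, 1.24 and 0.371 FPKM under HCD. Its ratio of 6.59 between HCD 1 and ND 2 was the largest of the 5.

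The energy genes split between the 2 high libraries. Ckm, muscle creatine kinase, was at 0.0927, 100.2 and 0.377 FPKM across ND 1 to ND 3 and at 81.4, 7.51 and 0.236 FPKM across HCD 1 to HCD 3. Pygm, the muscle glycogen phosphorylase, and Ckmt2, the mitochondrial creatine kinase, were also higher in ND 2, at 20.5 and 2.95 FPKM against 15.8 and 2.08 FPKM in HCD 1. Mb, myoglobin, the oxygen store of oxidative fibres, was higher in HCD 1. It was at 0.0930, 3.95 and 0.825 FPKM under ND and at 16.3, 2.67 and 0.407 FPKM under HCD. Cox6a2, the muscle subunit of cytochrome oxidase, was at 5.66 FPKM in ND 2 against 12.3 FPKM in HCD 1. Eno3, the muscle enolase, and Pfkm, the muscle phosphofructokinase, had a high floor. Eno3 was at 27.4, 57.9 and 30.0 FPKM under ND and at 46.1, 37.9 and 37.9 FPKM under HCD, and Pfkm at 13.4, 22.3 and 12.1 FPKM under ND and at 25.8, 12.8 and 12.9 FPKM under HCD. Their highest values were 2.11 and 2.13 times the lowest, against 1080 times for Ckm, whose lowest value rests on few reads.

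The regulators of muscle cell fate were low. Myod1, the factor that commits cells to muscle, was listed at 0 FPKM in ND 1, ND 3 and HCD 3, and at 0.370, 1.25 and 0.0264 FPKM in ND 2, HCD 1 and HCD 2. These values correspond to 18, 47 and 1 reads. Myog, myogenin, which drives fibre formation, was at 0.117, 0.485 and 0.0973 FPKM under ND and at 2.23, 0.295 and 0.0640 FPKM under HCD. Pax7, the marker of satellite cells, the stem cells of muscle, had at most 4 reads in a library and 0.0307 FPKM. Of the embryonic and regenerating genes, Myh3 and Myh8, heavy chains of developing fibres, were at 3.40 and 1.28 FPKM in HCD 1 and at 0.338 and 0.222 FPKM in ND 2. Actc1, the actin of heart and immature muscle, went the other way, with 8.41 FPKM in ND 2 against 2.28 FPKM in HCD 1. Myh3, Myh8 and Actc1 were chosen after their values were seen. The members of that list with the highest means, Vcam1 and Tnnt2, ranged over 9.29 to 16.7 and 3.62 to 5.23 FPKM without the muscle pattern. In 6 of the 13 genes of the list, ND 2, HCD 1 and HCD 2 lay above the other 3 libraries, against 10.8% of tested genes. HCD 1 was the highest library for 10 of the 13, against 20.9% of tested genes, and 5 of the 13 averaged at least 0.5 FPKM.

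A second list of 48 adult muscle genes that are no members showed the same order of libraries. In 46 of the 48, ND 2, HCD 1 and HCD 2 lay above the other 3 libraries, against 10.8% of tested genes. That order was set after the values of the members were known, and the list was chosen with earlier results of these data known. The sums were 10.5, 108 and 12.9 FPKM under ND and 187, 29.1 and 10.8 FPKM under HCD. Pgam2, the muscle phosphoglycerate mutase, was at 18.9 FPKM in ND 2 against 17.0 FPKM in HCD 1, and Ankrd23 at 8.29 and 11.4 FPKM. Csrp3, a muscle LIM protein of heart and slow fibres, chosen after its values were seen, was at 0.392 FPKM in ND 2 against 16.2 FPKM in HCD 1. Outside the members, the 10 genes whose centred log2 values over the 6 libraries lay nearest to the mean profile of the tested members were Eef1a2, Pgam2, Apobec2, Cmya5, Hfe2, Mustn1, Nrap, Mylk2, Ldb3 and Art1. Their root mean square distances ranged from 0.221 for Eef1a2 to 0.346 for Art1, on the log2(FPKM + 1) scale, among 11820 genes of at least 1 FPKM on average. Eef1a2, the elongation factor form of muscle and nerve, was at 0.0839, 8.82 and 0.279 FPKM under ND and at 14.5, 1.46 and 0.0459 FPKM under HCD.

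Heart genes were near 0, and most smooth muscle genes did not follow the order of the skeletal muscle genes: ND 2, HCD 1 and HCD 2 were above the other 3 libraries in 0 of 8 and 3 of 10. The 8 heart genes summed to at most 0.902 FPKM in a library, led by Tnni3 and Nppb with means of 0.276 and 0.190 FPKM, and Nppa was listed at 0 in all 6. Myh6, the heart heavy chain, was listed at 0.0270 FPKM in HCD 1 and at 0 elsewhere. The 10 smooth muscle genes summed to 57.6 to 64.1 FPKM under ND and to 50.6 to 86.5 FPKM under HCD, with 8 of 10 highest in HCD 2. The 3 that followed were Myh11, Lmod1 and Synpo2, named after their values were seen; Synpo2 was at 0.599, 0.980 and 0.394 FPKM in ND 2, HCD 1 and HCD 2 and at most 0.123 FPKM elsewhere. Acta2 and Tagln, smooth muscle actin and transgelin, were at 25.9 and 13.2 FPKM in ND 2 and at 21.4 and 13.4 FPKM in HCD 1, each the lowest of the 6 libraries in one of them: Acta2 in HCD 1 and Tagln in ND 2.

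Markers of other tissues near a subcutaneous tumour were read in the same libraries. Adipocyte markers summed to 11.4 to 30.2 FPKM under ND and to 7.50 to 68.2 FPKM under HCD, and 7 of 12 had ND 2, HCD 1 and HCD 2 above the other 3. Car3, carbonic anhydrase of fat and slow muscle, was at 0.729, 12.4 and 1.22 FPKM under ND and at 47.6, 7.81 and 0.372 FPKM under HCD, and Fabp4 ranged over 4.55 to 11.1 FPKM. Adipoq, adiponectin, chosen after its values were seen, was at 0.882, 0.952 and 0.826 FPKM in ND 2, HCD 1 and HCD 2 and at most 0.120 FPKM elsewhere. The part of fat tissue in the muscle values was not tested. Skin markers followed the muscle order in 0 of 11, summing to 29.8 to 33.0 FPKM under ND and 26.1 to 45.5 FPKM under HCD, led by Dsp and Sfn. Nerve sheath markers, led by Pmp22 and Cnp, did so in 2 of 8, with sums of 7.20 to 10.3 FPKM under ND and 8.29 to 11.7 FPKM under HCD; Sox10 was listed at 0 in ND 1 to ND 3 and HCD 1. Fibroblast markers, led by Dcn and Col1a1, and endothelial markers, led by Plvap and Esam, did so in 2 of 8 and 3 of 7. Of these, 7 fibroblast and 7 endothelial markers were highest in HCD 2. Of the 11 skin markers, 7 were highest in HCD 3. Krt14 and Krt5, chosen after their values were seen, were at 7.48 and 5.28 FPKM there and at most 0.802 and 1.65 FPKM elsewhere. Hepatoma markers, led by Alb and Apoe with means of 1407 and 642 FPKM, summed to 2038 to 2938 FPKM and followed the muscle order in 1 of 10. That gene was H19, a fetal non-coding RNA also made by muscle, named after its values were seen, at 1.78, 6.03 and 1.29 FPKM under ND and at 20.4, 2.83 and 0.597 FPKM under HCD.

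The comparison of HCD with ND asks whether the diets differed in tumour transcripts, here in those of muscle. No member differed between the diets beyond the spread of the libraries. The limma fit over the 13417 genes averaging at least 0.5 FPKM found 0 genes raised and 0 lowered at an adjusted p of 0.05 (0.00% in each direction), and among the 41 tested members 0 were called. At an unadjusted p under 0.05 there were 0 members, against 5.88% of all tested genes. The groups did not overlap in 0 of 41 members and in 12.1% of all tested genes. The members not tested, with lower means, were Myh7, Myl2, Myl3, Tnnc2, Casq2, Myod1 and Pax7. All 41 intervals included 0, and 40 were wider than the median half-width of 0.233 over all genes.

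The fitted differences of single genes, on the log2(FPKM + 1) scale with HCD minus ND, had wide intervals. Acta1 was at 3.02, 275 and 7.95 FPKM under ND and at 448, 43.5 and 3.77 FPKM under HCD, with a difference of 1.09 (SE 2.13, 95% interval -4.08 to 6.26, limma adjusted p = 0.911). Its groups overlapped, with HCD 1 above all ND libraries and ND 1 below all HCD libraries. Ckm, Tnnt3 and Myh4 differed by 0.84, 0.79 and 0.58, with standard errors of 2.21, 2.03 and 2.27 (adjusted p = 0.933, 0.931 and 0.957). In the fast list Myh2 had the lowest p, with a difference of 0.98 (interval -0.88 to 2.84, adjusted p = 0.804). Des, Mybpc1 and Sln differed by 0.93, 1.14 and 0.93 (adjusted p = 0.870, 0.813 and 0.844). Mb differed by 1.06 (adjusted p = 0.825) and Myog by 0.43 (adjusted p = 0.829). Myoz2 had the lowest adjusted p of the members, 0.795, with a difference of 0.36 (interval -0.25 to 0.96). Atp2a2, Eno3 and Pfkm, expressed in all tumours, differed by -0.07 (interval -0.28 to 0.15), 0.15 (-0.52 to 0.83) and 0.08 (-0.72 to 0.87), with adjusted p of 0.868, 0.904 and 0.963. With a pseudocount of 0.1 in place of 1, Myh4 differed by 1.52, Ckm by 1.5005, Myh2 by 1.60, Mybpc1 by 1.81, Mb by 1.66, Myoz2 by 0.80 and Myog by 0.86.

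The direction of the differences depended on some of the single libraries. Of the 41 tested members 39 had a higher mean log2 level in HCD, with a median difference of 0.51, against 55.7% of all tested genes and a median of 0.02. Many members passed the minimum mean only through their high libraries; without a minimum, 46 of 48 were higher. Without HCD 1, 6 of 34 tested members were higher and the median was -0.44. Without ND 1 the count was 23 of 42 (median 0.03), and without ND 3 it was 26 of 42 (median 0.09). Leaving out ND 2, HCD 2 or HCD 3 kept the direction, with 39 of 40, 41 of 42 and 41 of 42 tested members higher. The medians were then 1.36, 0.77 and 1.32, again with 0 members called. Without both ND 2 and HCD 1, 23 of 24 tested members were higher, with a median of 0.71. Acta1 differed by -0.56 without HCD 1, -0.12 without ND 1, 0.46 without ND 3, 2.93 without ND 2 and 2.72 without HCD 3. By role, the median difference was 0.61 for fast, 0.36 for slow, 0.63 for sarcomere and Z-disc, 0.42 for calcium release and 0.15 for energy genes, with 13 of 13, 4 of 5, 10 of 10, 5 of 5 and 6 of 7 tested members higher. Of the other adult muscle genes 34 of 35 tested had a higher mean (median 0.26), and 0 were called.

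**Figure D5:**
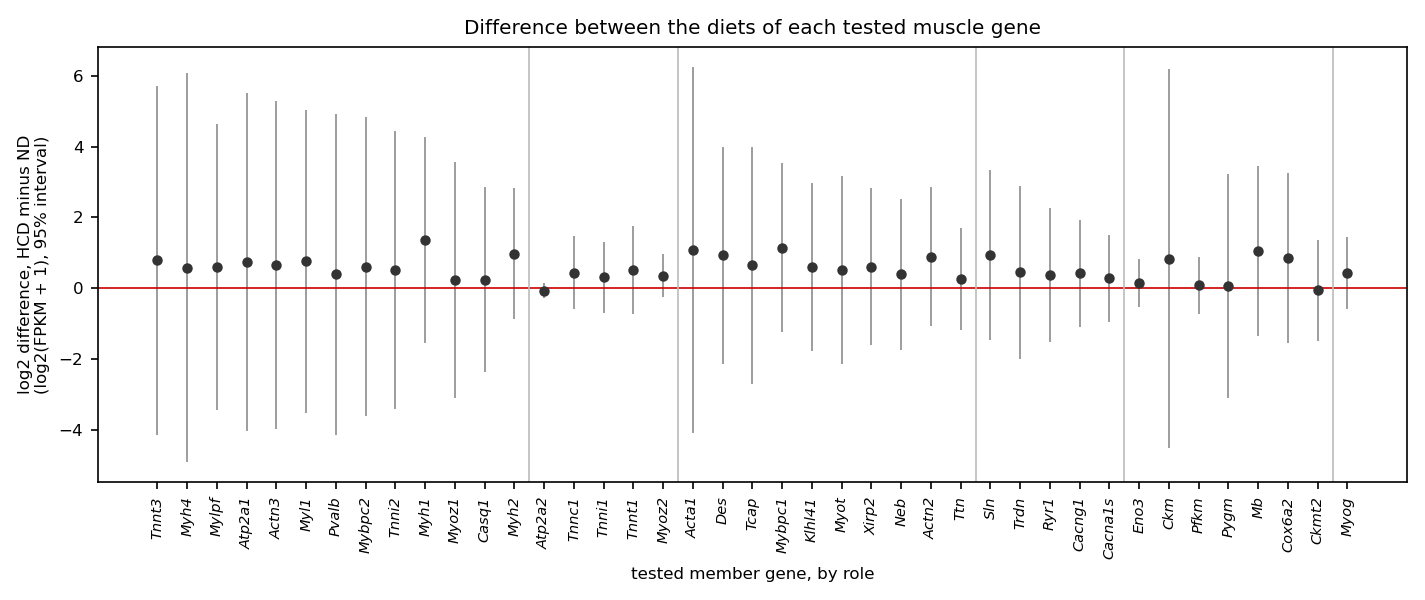
Log2 difference, HCD minus ND, of each of the 41 tested members with its 95% interval from limma; the red line marks no difference. All 41 intervals include 0, and Atp2a2 has the narrowest, from -0.28 to 0.15.

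Depth was similar among the libraries. The library sizes implied by the steps between FPKM values ranged from 20351632 to 26228064 fragments, so that 1 FPKM of a gene of 1 kb stands for 20.4 to 26.2 reads. Between 11495 and 12050 genes reached 1 FPKM. Log2 values of tested genes correlated between libraries with Pearson's r from 0.960 to 0.986, across genes, which are not independent replicates.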

How the data were processed

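Gene levels in the deposited table are FPKM values, per the file headers, in 1 column for each of the 6 tumour libraries. Tools credited in the submitters' processing notes are TopHat2 2.0.9, CASAVA 1.8, edgeR and HTSeq, with mm10 as build and no step stated for any; the annotation release and strand use are not given in the sources used here. All columns of values could be matched to samples. Since FPKM is no count, limma 3.58.1 (R 4.3.3) was fitted to log2(FPKM + 1) with diet as the only term and a variance trend, two-sided, for the 13417 genes averaging at least 0.5 FPKM. Adjusted p-values are Benjamini-Hochberg values over all tested genes at 0.05. The fit was tested on simulated data in which all genes had the same spread, so that test does not cover the wide spread of the members. The library sizes were read from the value steps, and whole reads within 0.02 were recovered for 44 of 48 members at the gene length nearest to that of GENCODE M21; those printed were the only set possible. Binomial intervals are exact (Clopper-Pearson, 95%) on these reads, rescaled per length, and a count of 0 was read as up to 3 reads. These cover counting error only. Positions are from GENCODE M21 on GRCm38, the assembly mm10 denotes; promoters are from RefSeq.

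Members and lists were chosen with earlier results of these data known. All members could be named with values. Differences are given for Acta1, Ckm, Myh4, Atp2a2, Des, Eno3 and Pfkm and, per role, for the tested member with the highest mean and that with the lowest p; of other lists the 2 with the highest means are named, and others are said to have been chosen afterwards. Flg, which names several gene IDs, and Mymk and Mymx are not analysed here. Alternatives were a pseudocount of 0.1, no minimum level, 2 other scalings, no variance trend, a replicate block and the omission of libraries.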

Additional observations from a re-analysis of the deposited data

How the results depend on the processing

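The count of members called was 0 in each of the 13 alternatives, and that of all genes called was 0 in each direction except 1 lower without ND 2; leaving out each library in turn gave 0 to 0 genes higher, 0 to 1 lower and 0 members. Members with a higher mean in HCD numbered 6 to 41 with a library left out, and 23 without both ND 2 and HCD 1, an alternative chosen after seeing the data that tests fewer members; the median difference was then -0.44 to 1.36, and 0.71. With a library left out, the named members ranged over -0.56 to 2.93 (Acta1), -0.15 to 0.0026 (Atp2a2), -0.72 to 2.96 (Ckm), -0.28 to 1.90 (Des), -0.0435 to 0.48 (Eno3), -0.995 to 2.82 (Myh4), -0.24 to 0.33 (Pfkm), -0.20 to 1.68 (Sln) and -0.72 to 2.68 (Tnnt3), all of them with both signs. Mb, Mybpc1, Myh2, Myog and Myoz2 stayed above 0 wherever they were tested; without HCD 1, Myh2, Myog and Myoz2 fell below the minimum mean. Without both ND 2 and HCD 1, Atp2a2 differed by 0.0279. The other alternatives kept the direction of all 14 named members, but with a pseudocount of 0.1 the median difference was 0.945, and Myh4, Ckm, Myh2, Mybpc1, Mb, Myoz2 and Myog differed by over 1.5 times their values with 1. With the replicate number as a block the median was 0.51 and 0 members were called. The labels do not say that equal numbers pair the libraries. Same-numbered deviations from the group means correlated at -0.19, 0.14 and 0.06, which cannot decide it with 3 libraries in each group.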
